A study of Mus musculus with 6 samples.

Results

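The genes described here are the estrogen receptors and a small set of genes that work with them or respond to them, 9 genes of the 55487 in the deposited tables: Esr1, Esr2, Gper1, Greb1, Pgr, Nrip1, Rara, Ncoa3 and Esrra. They were chosen by name, each matched to 1 Ensembl gene of the GRCm38 mouse genome, and the choice was made with the Esr1 counts of these libraries known. Differences in the 9 genes between the groups are therefore given as a description, and no p-value is given for them. The libraries came from cultured cortical microglia of CAG::CreERT2; Nr1d1 fl/fl mouse pups aged 1 to 3 days, with 3 Cre− cultures (control) and 3 Cre+ cultures (REV-ERBα KO), and each library was sequenced as bulk RNA. All 6 cultures were exposed to 1.5 μM 4-hydroxytamoxifen (4-OHT), for 2 days by the labels and for 24 h by the methods of the study. CreERT2 joins Cre recombinase to a mutated ligand-binding domain of estrogen receptor α that responds to 4-OHT (the species of the domain in this line is not given in the sources used here), and the CAG promoter drives it in most cell types, so the Cre+ cells carried a receptor domain that the Cre− cells lacked. No Cre+ culture without the floxed Nr1d1 alleles and no culture without 4-OHT was among the samples, so the transgene, its activation and the loss of REV-ERBα cannot be told apart. The paper does not state the sex of the sequenced cultures, and it was not examined here. The study describes cultures made from single pups, but the sources do not say this of the sequenced cultures, so p-values measure the spread between these cultures, which may be technical.

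Estrogen receptors α (Esr1) and β (Esr2) are nuclear receptors that bind DNA as dimers once they hold estradiol, and GPER1 is a membrane receptor for estrogens. Tamoxifen is converted in the body to 4-OHT, a ligand of the estrogen receptors that opposes or mimics estradiol depending on the tissue. Coactivators such as NCOA3 and corepressors such as NRIP1 (RIP140) bind the liganded receptor, while GREB1 and the progesterone receptor (Pgr) are classic estrogen-induced genes of breast and uterus. ESRRA is an orphan receptor related to the estrogen receptors that does not bind estradiol and regulates mitochondrial genes.

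Depth was similar across the cultures, with 87545868 to 93942161 counts on genes in the Cre− libraries and 93701215 to 110909129 in the Cre+ libraries, and 3 counts corresponded to 0.0270 to 0.0343 CPM (counts scaled to the library total). The microglia markers, 12 genes including Csf1r, Trem2 and Cd68, summed to 9569 to 9996 CPM in Cre− and 9456 to 9758 CPM in Cre+ libraries, although P2ry12 stood at only 0.610 and 0.722 CPM in the group means. Astrocyte markers summed to 13.1 to 14.4 CPM in Cre− and 11.5 to 15.1 CPM in Cre+ cultures, nearly all of it Aldh1l1. Apart from Aldh1l1, each astrocyte marker had a mean under 1 CPM in both groups. Of these, Gfap had a higher mean in Cre+ cultures. Gja1 (0.293 against 0.692 CPM), Slc1a2 (0.258 against 0.533 CPM), Aqp4, Slc1a3, Sox9 and S100b had lower means. Oligodendrocyte markers summed to 83.8 to 93.1 and 81.0 to 85.8 CPM, most of it Cspg4 and Mbp. Neuron markers summed to 2.93 to 3.82 CPM in Cre− and 2.06 to 2.16 CPM in Cre+ cultures. Fibroblast and mural markers summed to 1.84 to 2.83 and 0.972 to 1.23 CPM, and endothelial markers to 20.9 to 22.9 and 24.3 to 27.9 CPM, most of it Flt1. Of the endothelial markers, only Flt1 had a higher mean in Cre+ cultures (25.2 against 20.1 CPM). Kdr (0.958 against 1.22 CPM), Pecam1 (0.271 against 0.477 CPM), Cdh5, Cldn5 and Tek had lower means, most at few counts. The targeted gene, Nr1d1, was at 2.35, 1.20 and 1.64 CPM in the Cre− libraries and at 1.00, 0.945 and 1.08 CPM in the Cre+ libraries, with no overlap between the groups and a log2 fold change of -0.77 ± 0.25 (standard error) that missed the threshold (edgeR adjusted p = 0.094). The span of Nr1d1 (98767932 to 98775333 on chromosome 11) overlaps that of Thra (98740638 to 98769006) on the other strand, and shared exon bases were not counted. The Nr1d1 count covers all its exons (3077 bases), whereas Cre removes only some of them, so transcript of the remaining exons could still be counted. The paper reports a far larger loss of the transcript in microglia of another Cre line, Cx3cr1::CreERT2. The size of this count is therefore no measure of how complete the deletion was. In bulk RNA, fewer cells of a type and less RNA per cell cannot be told apart.

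The short stretch around a gene's start is one place where estrogen receptors can act, and it was read for the members from RefSeq (GRCm38.p6), from 250 bases before to 50 bases after each annotated start. Of the 9 members, 8 had such a window, 14 windows in all. The palindromic estrogen response element, GGTCA and its reverse complement TGACC separated by any 3 bases and searched on both strands, was in 0 of the 14 windows and in 0.0700% of the 32851 windows of all genes. The extended site TCAAGGTCA, known as a binding sequence of ESRRA, was also in 0 of the 14, against 0.423% of all windows. The 6-base core AGGTCA, which is contained in the extended site and is shared by estrogen, retinoic acid and REV-ERB receptors, was in 2 of the 14 windows, those of Greb1 and of a start of Rara, against 16.3% of all windows. These windows are shown with the core, or its reverse complement, in capitals, beside the upstream window of Esr1, which holds no such core. The Greb1 window is chr12:16800837-16801136 on the minus strand, the Rara window chr11:98964622-98964921 and the Esr1 window chr10:4611739-4612038, both on the plus strand.
Greb1: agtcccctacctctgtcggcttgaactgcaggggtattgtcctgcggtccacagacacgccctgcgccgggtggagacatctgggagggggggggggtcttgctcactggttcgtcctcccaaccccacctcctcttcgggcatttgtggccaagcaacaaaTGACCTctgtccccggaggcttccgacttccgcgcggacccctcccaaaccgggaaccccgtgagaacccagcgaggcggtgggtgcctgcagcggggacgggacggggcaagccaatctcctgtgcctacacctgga
Rara: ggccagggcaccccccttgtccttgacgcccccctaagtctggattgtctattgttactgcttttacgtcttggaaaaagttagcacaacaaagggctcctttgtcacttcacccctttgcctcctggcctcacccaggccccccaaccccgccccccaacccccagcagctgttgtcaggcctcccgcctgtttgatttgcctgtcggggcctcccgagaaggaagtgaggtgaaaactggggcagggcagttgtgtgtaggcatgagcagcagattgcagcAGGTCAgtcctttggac
Esr1: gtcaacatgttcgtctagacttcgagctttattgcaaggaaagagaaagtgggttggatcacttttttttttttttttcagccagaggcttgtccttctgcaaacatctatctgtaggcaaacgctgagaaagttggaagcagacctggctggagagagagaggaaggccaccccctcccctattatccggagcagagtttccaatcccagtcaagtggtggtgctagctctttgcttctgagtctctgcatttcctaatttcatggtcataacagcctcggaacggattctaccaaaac
A match describes the letters in these windows and no more, and elements farther from the start were not searched. Over all genes, 20 had the palindromic element in a window, of which 15 were in the tables and 0 had enough counts to be tested.

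Esr1 (ENSMUSG00000019768), which encodes estrogen receptor α, lies on chromosome 10 from 4611593 to 5005614. It was counted 106, 61 and 91 times in the Cre− libraries and 697, 603 and 612 times in the Cre+ libraries. In CPM on TMM-normalised library sizes, this was 1.22, 0.660 and 1.02 in Cre− and 6.36, 6.48 and 6.07 in Cre+ cultures. Every Cre+ library thus lay far above every Cre− library. The means were 0.966 ± 0.283 CPM and 6.30 ± 0.209 CPM (SD, n = 3 cultures each), a ratio of 6.53 and an added level of 5.34 CPM, and the log2 fold change was 2.71 (SE 0.20). Among the 11429 genes tested across the series, 2 had a log2 fold change of larger size, and Esr1 was number 2 from the top of the rises. The Cre+ cultures were closely alike, with a coefficient of variation of 3.32%, where counting alone gives 3.96%, whereas the Cre− cultures varied by 29.3%, where counting gives 10.8%. Esr1 passed the expression filter narrowly, with 4 libraries above 1 CPM of the library total, the 3 Cre+ libraries and Cre− replicate 1.

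The Esr1 count could not be divided between the receptor gene and the transgene. All features in the tables were mouse Ensembl genes, and reads of the receptor domain in CreERT2 could be counted on Esr1 where its sequence matches the mouse gene closely enough, which depends on the unstated species of the domain and was not tested. A rise of the receptor transcript and reads of the transgene therefore cannot be told apart. The exons of Esr1, 13661 bases in all, shared 0 bases with other genes on either strand. Of 13722 distinct 75-base stretches of its transcripts, 21 (0.153%) occurred in another gene, Ppp2r5a. The genes around Esr1 served as a view of the locus. Of 8 genes starting within 250 kb, 4 were tested, Zbtb2, Gm21781, Rmnd1 and Armt1, with log2 fold changes from -0.11 to 0.40, 2 higher and 2 lower in Cre+ cells. None of these 4 was called by edgeR's quasi-likelihood test at an adjusted p of 0.05, with 0 by limma, 0 by DESeq2 and 0 at an unadjusted p under 0.05. Over all genes tested, 5.07% were called by edgeR and 19.1% were at an unadjusted p under 0.05. With only 4 genes, none called says little about the locus.

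**Figure D1:**
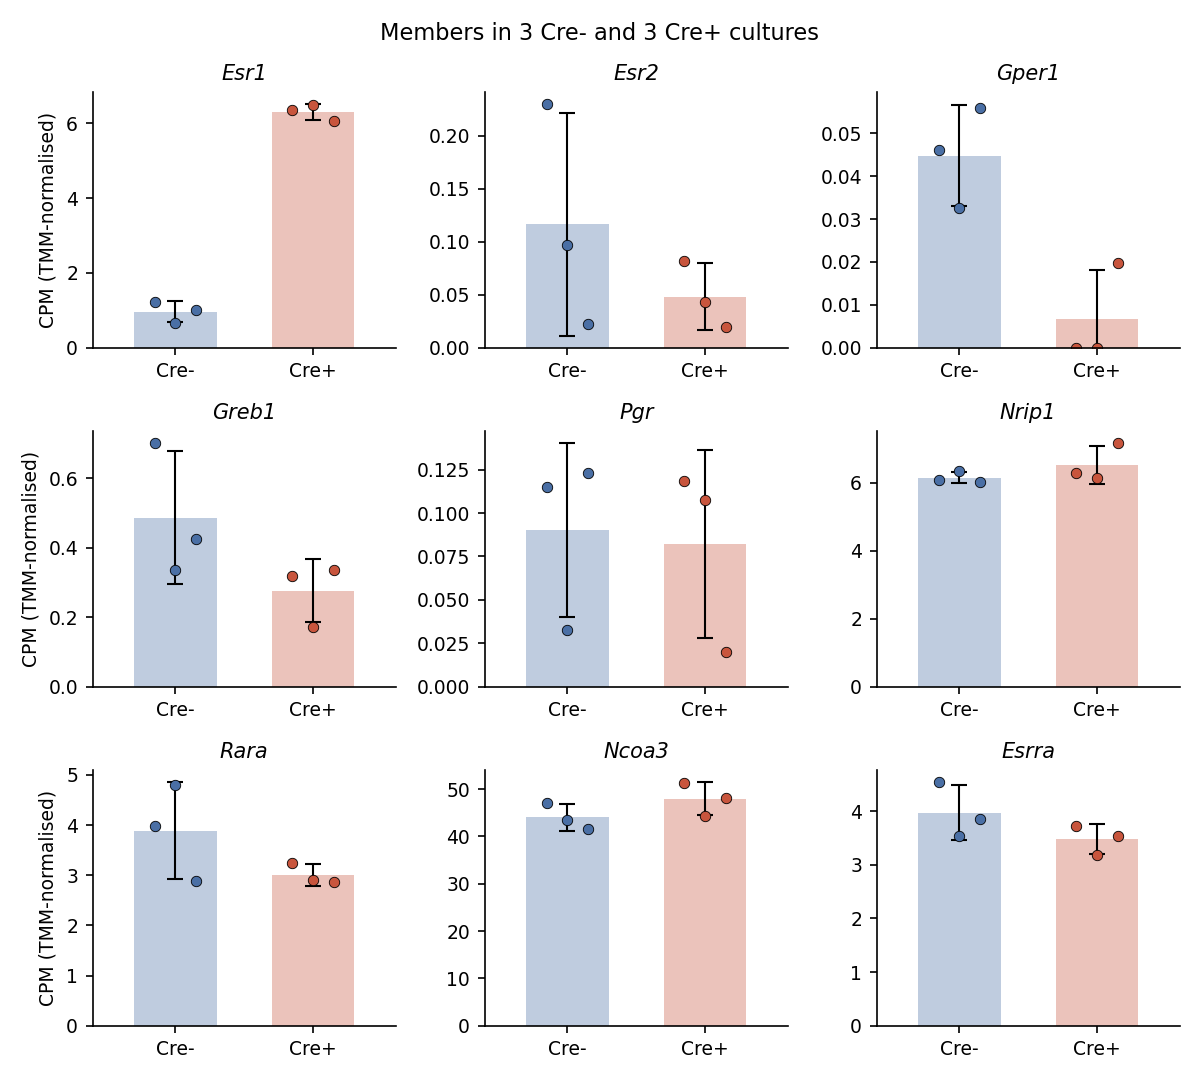
Level of each of the 9 genes in CPM on TMM-normalised library sizes, in Cre− (blue) and Cre+ (red) cultures. Points are libraries (replicates 1 to 3 from left to right), bars are means and error bars are SD, n = 3 cultures each; the vertical scale differs between panels, and Esr1 is at 0.660 to 1.22 CPM in Cre− and 6.07 to 6.48 CPM in Cre+ cultures.

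The other estrogen receptors were close to the limit of detection. Esr2 (chromosome 12), the β receptor, was counted 20, 9 and 2 times in Cre− and 9, 4 and 2 times in Cre+ cultures, 0.117 ± 0.105 CPM and 0.0483 ± 0.0315 CPM (SD, n = 3 cultures each). The groups overlapped, and in each of them 1 library fell below 3 counts. Gper1 (chromosome 5), the membrane receptor, had 4, 3 and 5 counts in Cre− and 0, 0 and 2 counts in Cre+ cultures. These counts are at or near the 3 counts that a count of 0 allows, so no fold is given for Gper1.

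Of the 4 members that respond to estrogen in breast or uterus, both classic targets were low. Greb1 (chromosome 12), which encodes an estrogen-induced cofactor of the receptor, had 61, 31 and 38 counts in Cre− libraries and 35, 16 and 34 in Cre+ libraries. In CPM it was at 0.701, 0.336 and 0.425 in Cre− and at 0.319, 0.172 and 0.337 in Cre+ cultures, a mean of 0.487 ± 0.191 against 0.276 ± 0.0908 (SD, n = 3 cultures each). The groups touched, since Cre− replicate 2 lay just under Cre+ replicate 3, and the Cre+ mean was 0.567 of the Cre− mean. Of the exon bases of Greb1, 736 of 9580 are shared with Gm48140 on the other strand. Pgr (chromosome 9), the progesterone receptor, had 10, 3 and 11 counts in Cre− and 13, 10 and 2 in Cre+ cultures, with fully overlapping groups and a ratio of means of 0.909. None of Esr2, Gper1, Greb1 and Pgr exceeded 1 CPM in any library, and they did not enter the test.

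Levels this low moved with the group across the whole transcriptome. More genes had a count in the Cre− libraries, 32587 to 35166, than in the Cre+ libraries, 29941 to 30677. Among all genes with a mean of 1 to 10 counts per library, the median log2 ratio of Cre+ over Cre− (on CPM + 0.01) was -0.77, and 75.7% were lower in Cre+ cells. With 30 to 100 counts the median was -0.18 and 64.9% were lower, and from 1000 counts it was 0.02. On this scale Esr2 was at -1.12 and Pgr at -0.12, or percentiles 37.3 and 72.2 of the genes of similar count, values that rest on few counts and on the added 0.01. Greb1, at -0.80, was at percentile 17.5 of its range of counts. What part of this general drop lies in the lower Esr2, Gper1 and Greb1 counts was not tested. Nor was the part of the lower neuron and fibroblast marker sums of the Cre+ cultures. The same holds for the lower means of most weakly counted astrocyte and endothelial markers. Esr1 was high against it, at percentile 99.97 of genes with 300 to 1000 counts.

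**Figure D2:**
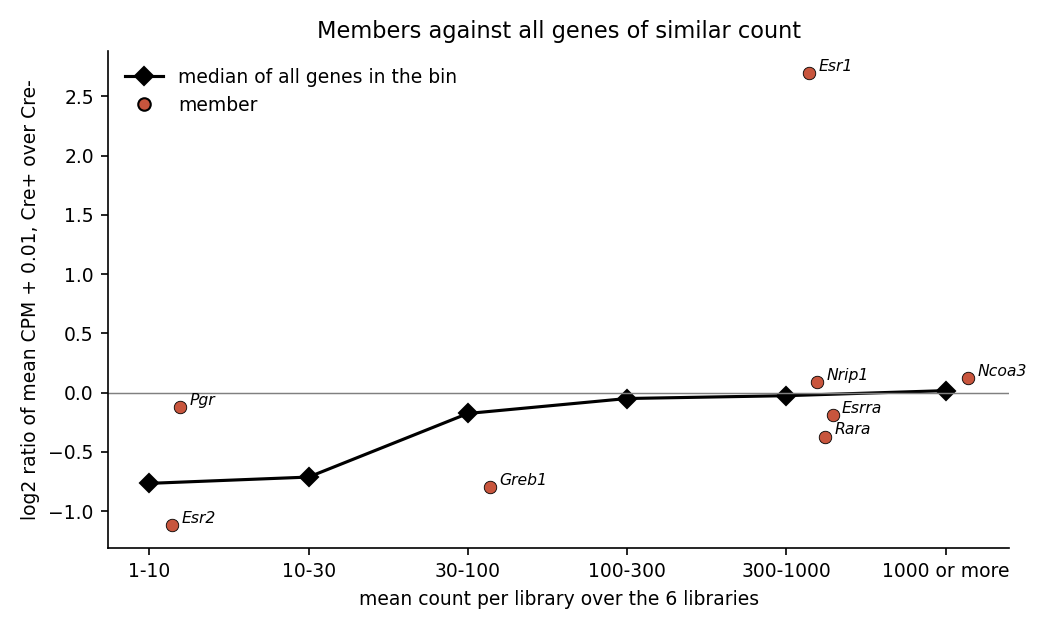
Log2 ratio of the mean CPM + 0.01, Cre+ over Cre− (vertical), against the mean count per library in 6 ranges (horizontal), with the median of all genes in each range as black diamonds joined by a line and 8 members as red points (Gper1, at the floor, is left out), shifted sideways for legibility. The median falls to -0.77 at 1 to 10 counts, and Esr1 stands alone at 2.69.

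Nrip1 and Rara, the other members induced by estrogen in breast cells, were measured well enough to be tested. Nrip1 (chromosome 16), a ligand-dependent corepressor that estrogen itself induces, was at 6.08, 6.34 and 6.04 CPM in Cre− and at 6.30, 6.13 and 7.17 CPM in Cre+ cultures. Cre+ replicate 3 was the highest library and the other libraries mixed, and the log2 fold change was 0.09 (SE 0.12). The 95% interval of the fold, from 0.883 to 1.28, holds both a modest fall and a modest rise. Rara (chromosome 11), the retinoic acid receptor α, was at 3.98, 4.81 and 2.88 CPM in Cre− and at 3.25, 2.90 and 2.86 CPM in Cre+ cultures. Cre− replicate 3 fell among the Cre+ libraries while the other Cre− libraries lay above them, and the log2 fold change was -0.37 (standard error 0.19, 95% interval of the fold 0.583 to 1.02). Without Cre− replicate 3 the log2 fold change of Rara was -0.55, and without Cre− replicate 2 it was -0.19.

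Rara starts 152485 bases from Nr1d1 on the same chromosome, so the region around the floxed gene was looked at as well. Of 27 genes starting within 250 kb of Nr1d1, 11 were tested, Rara included, 3 with a higher and 8 with a lower estimate in Cre+ cells. Of these, 2 passed the threshold, 1 in each direction, where 5.07% of all genes tested passed it. Top2a, a DNA topoisomerase of dividing cells, rose from 3.11 ± 0.584 to 5.39 ± 0.176 CPM (0.79 ± 0.16, the log2 fold change with its standard error, edgeR adjusted p = 0.0096). Casc3, a core factor of the exon junction complex, fell from 6.71 ± 0.884 to 4.46 ± 0.595 CPM (-0.59 ± 0.15 log2, edgeR adjusted p = 0.034). The call of Casc3 was lost when any library except Cre− replicate 2 was left out (log2 fold change -0.69 to -0.49 over all alternatives), while that of Top2a was kept in each of its 13 alternatives.

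The coactivator and the orphan receptor varied little. Ncoa3 (chromosome 2), the steroid receptor coactivator also called SRC-3, was the most abundant member, at 47.0, 43.5 and 41.5 CPM in Cre− and 51.4, 44.4 and 48.1 CPM in Cre+ cultures. Cre+ replicate 1 was the highest library, and Cre+ replicate 2 lay among the Cre− libraries. The log2 fold change of Ncoa3 came to 0.12 ± 0.07 (standard error), with a 95% interval of the fold from 0.983 to 1.21. Esrra (chromosome 19) was at 4.54, 3.53 and 3.86 CPM in Cre− and 3.73, 3.18 and 3.54 CPM in Cre+ cultures, again overlapping, and the log2 fold change was -0.19 (SE 0.16, 95% interval of the fold 0.692 to 1.11). Of the exon bases of Ncoa3, 154 of 7895 are shared with Sulf2, and of Esrra 73 of 4414 with Trmt112 and 91 with Mir6990.

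In the edgeR fit over all genes, 579 of 11429 genes (5.07%) were past an adjusted p of 0.05. The groups did not overlap in 24% of all genes tested. Of the 5 members tested they did not overlap in 1, Esr1, whose counts were known when the members were chosen. Since the members were proposed with this contrast known, no test outcome is given for them and nothing is read from these shares. Side by side, the log2 fold changes were 2.71 for Esr1, 0.09 for Nrip1 and -0.37 for Rara, while Greb1 and Pgr were too low to be tested.

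Between genes, levels were compared per kilobase of exon. In Cre− cultures the order was Ncoa3 (5.58 ± 0.355 CPM per kb), Esrra (0.901 ± 0.117), Rara (0.891 ± 0.221), Nrip1 (0.537 ± 0.0144), Esr1 (0.0707 ± 0.0207), Greb1 (0.0509 ± 0.0199), Esr2 (0.0346 ± 0.0312), Gper1 (0.0177 ± 0.00463) and Pgr (0.0105 ± 0.00586, each SD, n = 3 cultures). Esrra and Rara overlapped, as did Esr1 with Greb1, Greb1 with Esr2, Esr2 with Gper1, and Gper1 with Pgr. In Cre+ cultures Esr1 was at 0.461 ± 0.0153 CPM per kb, well above Greb1 (0.0288 ± 0.00947) and still under Nrip1 (0.570 ± 0.0487), with no Esr1 library reaching the lowest Nrip1 library of that group. The length used is that of all Esr1 exons, and a transcript carrying only the ligand-binding domain would be shorter.

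**Figure D3:**
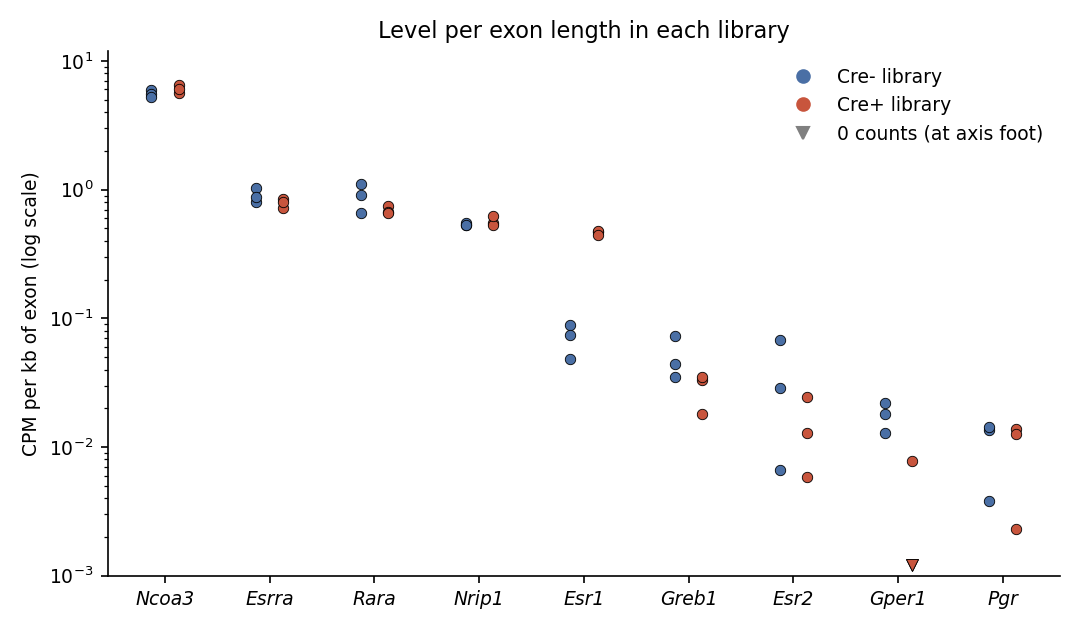
CPM per kilobase of exon (vertical, log scale) of the 9 genes, ordered by their Cre− mean, with 1 point per library, Cre− in blue and Cre+ in red; the triangle at the axis foot marks the 2 Cre+ libraries with 0 counts of Gper1, drawn on top of each other. Esr1 is at 0.0483 to 0.0892 in Cre− and at 0.444 to 0.474 in Cre+ cultures, where it comes close to Nrip1.

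Genes that accompany estrogen signalling were then examined in 7 lists, without the 9 members. Of 185 genes listed, 104 passed the expression filter, and 11 were called, 4 higher (2.5% of all genes tested were called higher) and 7 lower (2.56%) in Cre+ cells. The share was 10.6%, against 5.07% of all genes, and the median log2 fold change was -0.01, against 0.00 over all genes. The lists were chosen with earlier results of these data known, so nothing is read from this share. Leaving out 1 library lowered the count to between 3 (without Cre+ replicate 3) and 5 (without Cre+ replicate 1, Cre+ replicate 2 or Cre− replicate 2), with 4 without Cre− replicate 1 or Cre− replicate 3. In all 11 called genes the groups did not overlap, as in 24% of all genes tested, though the calls rest on the same values. Ccnd1 was called in each of these fits and in each other alternative.

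Of 41 estrogen-responsive genes other than the members, 19 were tested, with log2 fold changes from -0.70 to 0.60 and a median of -0.07. Of these, 2 were called higher and 1 lower, where 2.5% and 2.56% of all genes tested were. In the same list limma called 4 and DESeq2 5 genes, and 9 were at an unadjusted p under 0.05 in edgeR, where 19.1% of all genes tested were. Over all 11429 genes tested, limma called 572 and DESeq2 886, also for comparison with the lists below. Ccnd1, cyclin D1, rose from 12.7 ± 1.35 to 19.3 ± 3.43 CPM (SD, n = 3 cultures each), or 0.60 ± 0.12 log2 with its standard error (edgeR adjusted p = 0.0082). Myc, the growth-promoting transcription factor, rose from 21.2 ± 1.39 to 26.3 ± 0.959 CPM (0.31 ± 0.08 log2, edgeR adjusted p = 0.031). Susd3 fell from 10.7 ± 1.07 to 7.43 ± 0.480 CPM (-0.53 ± 0.12 log2, edgeR adjusted p = 0.015). The call of Myc was lost without Cre+ replicate 2 or 3 or Cre− replicate 1 or 2 and with the replicate numbers as a block (log2 fold change 0.26 to 0.39 over its alternatives), and that of Susd3 without Cre+ replicate 1 or Cre− replicate 2 (-0.58 to -0.44). The 2 most abundant genes of the list were Ctsd, the lysosomal protease cathepsin D, at 21475 ± 481 and 20005 ± 915 CPM, and the growth factor Igf1, at 1189 ± 14.1 and 1086 ± 16.8 CPM. Their groups did not overlap and their log2 fold changes were -0.10 and -0.13, short of the threshold in edgeR (adjusted p = 0.13 and 0.051). Igf1 was called lower with DESeq2's size factors, by DESeq2 and by limma.

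Coregulators of the receptors were nearly all expressed, with 28 of 29 tested and a median log2 fold change of -0.06. Of these, 1 was called higher and 3 lower, where 2.5% and 2.56% of all genes tested were. At an unadjusted p under 0.05 in edgeR there were 7, where 19.1% of all genes tested were. Safb2 and Safb, a pair of related scaffold attachment factors that repress estrogen receptor α, fell by 0.31 ± 0.07 and by 0.33 ± 0.08 on the log2 scale (edgeR adjusted p = 0.020 and 0.033). Tbl1x, a subunit of nuclear receptor corepressor complexes, rose from 13.4, 13.9 and 13.6 CPM to 16.7, 19.1 and 16.9 CPM (0.37 ± 0.09 log2, edgeR adjusted p = 0.028). The calls of Safb2, Safb and Tbl1x were each lost in 4 to 5 of the 6 fits without 1 library. Those of Safb2 and Safb were also lost without a filter on expression, and that of Safb with the replicate block. The log2 fold changes of Safb2, Safb and Tbl1x over all alternatives were -0.36 to -0.24, -0.37 to -0.26 and 0.30 to 0.44. The most abundant genes of the list, the RNA helicase Ddx5 (176 and 181 CPM) and the splicing factor Rbm39 (136 and 137 CPM), had log2 fold changes of 0.04 and 0.01.

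Among the nuclear receptors, the family of Esr1, 17 of 44 others were tested, of which 0 were called higher and 2 lower, with 5 at an unadjusted p under 0.05, 2 called by limma and 3 by DESeq2. Over all genes tested, edgeR called 2.5% higher and 2.56% lower, and 19.1% were at an unadjusted p under 0.05. Rxra, the retinoid X receptor that pairs with RARA, fell from 33.2 ± 1.39 to 27.1 ± 2.65 CPM (-0.29 ± 0.08 log2, edgeR adjusted p = 0.046). Nr1h2, the liver X receptor β, fell from 96.2 ± 3.76 to 84.3 ± 1.47 CPM (-0.19 ± 0.05 log2, edgeR adjusted p = 0.041). Both calls were lost without any 1 of the 6 libraries and without a filter on expression, and that of Nr1h2 also with the replicate block. The log2 fold changes over all alternatives were -0.33 to -0.21 for Rxra and -0.22 to -0.11 for Nr1h2. In retinoid signalling, where Rara acts, 5 of 19 genes were tested, and Rxra fell while Dhrs3, a retinaldehyde reductase induced by retinoic acid, rose from 1139 ± 23.4 to 1266 ± 51.3 CPM (0.15 ± 0.04 log2, edgeR adjusted p = 0.039). The call of Dhrs3 was lost with DESeq2's size factors, with the replicate numbers as a block and in 5 of the 6 fits without 1 library (log2 fold change 0.13 to 0.23 over its alternatives). Rarb, the retinoic acid receptor β, was left out by the filter and is named because of its values. It had 28, 29 and 14 counts in Cre− and 186, 63 and 65 counts in Cre+ libraries, or 0.264 ± 0.0933 and 1.01 ± 0.599 CPM, with Cre+ replicate 1 far above the rest.

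Of 15 chaperones and co-chaperones of steroid receptors, all tested, 0 were called higher and 1 lower, Stub1, a ubiquitin ligase that acts on chaperone clients, from 50.1 ± 1.90 to 42.9 ± 0.941 CPM (-0.22 ± 0.06 log2, edgeR adjusted p = 0.039). Of the 15, 8 were at an unadjusted p under 0.05, and limma and DESeq2 called 1 each. Over all genes tested, 19.1% were at such a p in edgeR and 5.07% were called by it, also for comparison with the lists below. The call of Stub1 was lost in 5 of the 6 fits without 1 library, with the replicate block and without a filter on expression. Its log2 fold change was -0.26 to -0.14 over its alternatives. Hspa8 and Hsp90ab1, the most abundant chaperones, were at 1589 ± 37.2 and 1724 ± 51.9 CPM and at 980 ± 21.5 and 1013 ± 19.1 CPM in Cre− and Cre+ cultures, with log2 fold changes of 0.12 and 0.05. In estrogen synthesis and inactivation, 7 of 22 genes were tested and 0 were called by edgeR, 0 by limma and 1, Hsd17b4, by DESeq2, with 2 at an unadjusted p under 0.05 in edgeR. The most abundant, the hydroxysteroid dehydrogenases Hsd17b12 and Hsd17b4, had log2 fold changes of 0.11 and 0.17. Among partners and targets of ESRRA, 16 of 20 were tested and 0 were called by edgeR, 0 by limma and 1, Cycs, by DESeq2, with 2 at an unadjusted p under 0.05 in edgeR. Hsd17b4 and Cycs were also called by edgeR with library totals in place of TMM and without a filter on expression. Atp5b and Slc25a4, mitochondrial proteins of ATP synthesis and export, had log2 fold changes of 0.04 each, and the median of the list was 0.05.

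**Figure D4:**
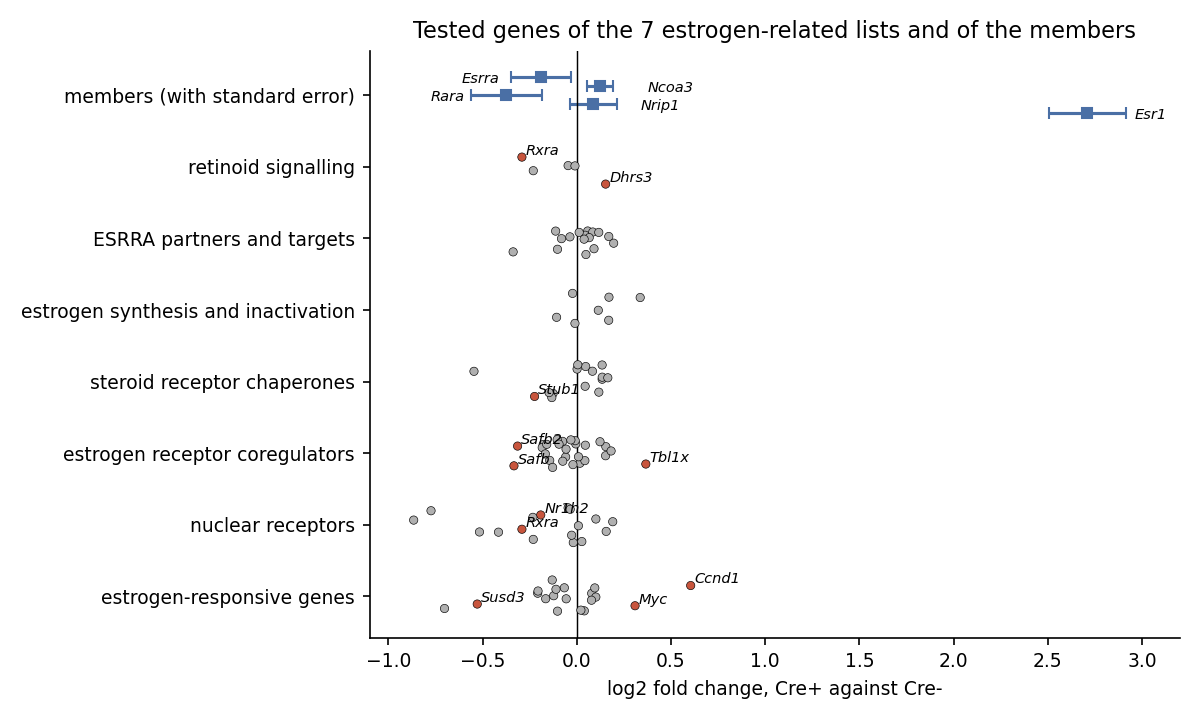
Log2 fold change, Cre+ against Cre− (horizontal), of the tested genes in each of the 7 lists (circles, without the members and 1 coregulator that is not shown, spread vertically within a list for legibility) and of the 5 tested members (squares with standard errors). Red circles with names passed an adjusted p of 0.05 in edgeR's test; the named genes lie between -0.53 (Susd3) and 0.60 (Ccnd1), and Esr1 is at 2.71.

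Finally, the profile of Esr1 over the 6 libraries was compared with that of every other gene tested, as the root mean square difference of log2 CPM centred on the Cre− mean, which describes likeness in size and is not a test. The nearest was Sgce (chromosome 6), which encodes ε-sarcoglycan and is imprinted, with a difference of 0.364. Sgce was at 6.23, 6.60 and 6.85 CPM in Cre− and at 35.6, 34.3 and 36.3 CPM in Cre+ cultures. Next came Adamts1 (chromosome 16), a secreted metalloprotease, at a difference of 0.640, with 18.8, 22.3 and 21.6 CPM against 89.8, 81.2 and 75.7 CPM. 3830403N18Rik and Xlr4b, both on the X chromosome, and Crip2 (chromosome 12) followed at differences of 0.840, 1.13 and 1.16, with Cre+ means of 14.3, 2.91 and 2.98 CPM against 4.42, 1.24 and 1.27 CPM. In all 5 the groups did not overlap, as in 24% of all genes tested, which follows from their choice by likeness to Esr1. None of them belongs to the lists of estrogen-related genes, which held only 104 of the 11429 genes tested, so nothing is read from this.

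**Figure D5:**
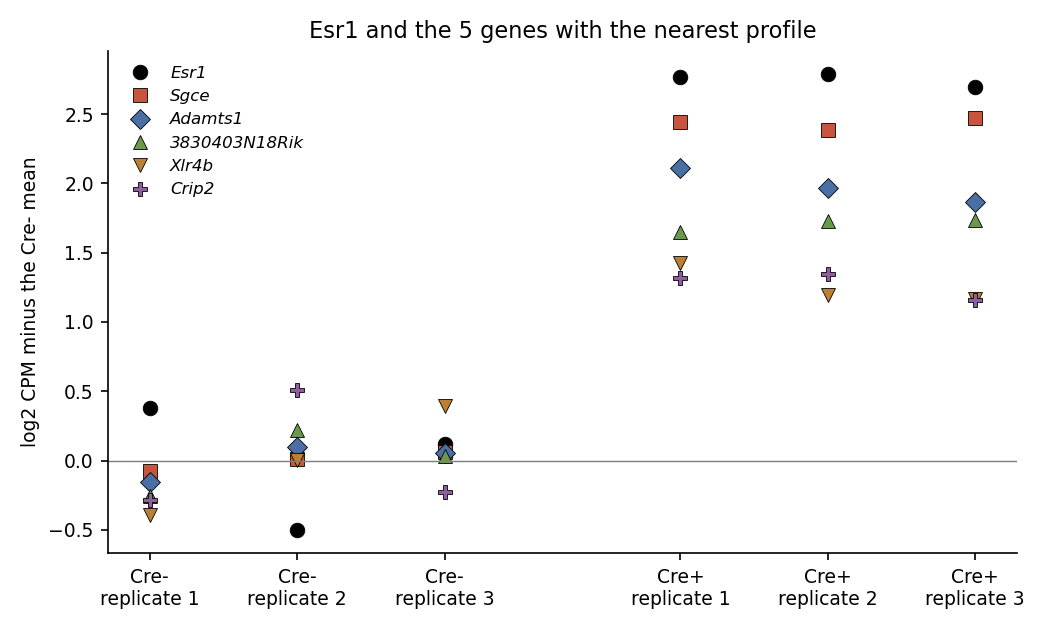
Log2 CPM minus the mean of the Cre− libraries (vertical) in each of the 6 libraries (horizontal) for Esr1 (black circles) and the 5 tested genes nearest to it. Sgce follows Esr1 most closely, while Xlr4b and Crip2 rise by less, with Cre+ means of 2.91 and 2.98 CPM.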

How the data were processed

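Counts, as deposited by the authors, are whole reads per Ensembl gene in each of 6 libraries (SMARTer amplification of total RNA, paired-end sequencing). The labels name STAR 2.7.9a and featureCounts 2.0.3 on GRCm38, whereas the methods of the paper name older versions of both, and a strand setting is not given in the sources used here, so reads of overlapping genes on opposite strands may not be separated. The deposited CPM are counts scaled to the library total and the deposited FPKM are these CPM per kilobase of exon, and both were read only to check their unit. Symbols, biotypes and transcripts came from GENCODE M21 (GRCm38), which matched 55227 of 55487 genes. Of the listed symbols, 3 were found under a newer name and 1, Sts, was not found.

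The 356 ribosomal RNA genes were removed, and a gene needed over 1 CPM in 4 or more libraries, which left 11429 genes for the quasi-likelihood test of edgeR 4.0.16 in R 4.3.3, with TMM factors, no covariates and Benjamini-Hochberg adjustment over all genes at 0.05. Standard errors were derived from the F statistic and the log2 fold change. CPM in the text use TMM-normalised library sizes. The variation between cultures came to 10.0%. Pairs of libraries differed by 18.8 to 25.8 times counting noise within a group and by 53.9 to 90.9 times between groups. The pipeline was tested on simulated data.

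Members and lists were chosen with earlier results of these data known. Named genes were the members, up to 4 called and the 2 most abundant genes of each list, the called genes near Esr1 and Nr1d1 (up to 4 each), the 5 nearest profiles to Esr1, and Nr1d1. The values of 1 called coregulator are not reported here, though the counts include it. Rarb, Hsd17b4 as an added call and Cycs were named after their values were seen. As alternatives, the fit was repeated with DESeq2's size factors or plain totals, and with limma 3.58.1 (voomWithQualityWeights), DESeq2 1.42.0, 2 other filters, the replicate number as a block, and leaving out each library.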

Additional observations from a re-analysis of the deposited data

How the results depend on the processing

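The log2 fold change of Esr1 kept its direction in each of the 13 alternatives and ran from 2.49 to 2.90. The other tested members also kept their signs, from 0.01 to 0.16 for Nrip1, -0.55 to -0.19 for Rara, 0.07 to 0.20 for Ncoa3 and -0.27 to -0.09 for Esrra. The number of genes called over the whole series, 579, was 886 with DESeq2 and 1528 without a filter on expression (43842 genes in the fit, against 11429), and 317 to 448 when 1 library was left out. Without a filter the median log2 fold change of the genes otherwise tested moved from 0.00 to 0.08. In the estrogen-related lists, 11 calls became 6 with the replicate block and 3 to 5 when 1 library was left out. Without a filter there were 16, 11 higher and 5 lower, against 4 and 7, and 6 of the 16 were among the 11. The labels do not say what the replicate numbers share. The deviations of same-numbered libraries from their group means correlated at 0.00, -0.04 and -0.06. With 3 libraries per group, these values show no pairing but cannot exclude one, so the block is an alternative only. Nr1d1 was called lower without Cre− replicate 2 alone (log2 fold change -0.98, and -0.77 with all libraries, adjusted p 0.041 to 0.31 over its alternatives). Hspa8 was called higher without a filter. Depth limits Esr2, Gper1, Greb1 and Pgr, of which the libraries held 0 to 61 counts each.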
